A study of Mus musculus with 6 samples.

Results

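The levels of 9 transcription factors of ovarian stroma and other mesenchyme were compared between Smad1/5/8 mutant granulosa cell tumors and granulosa cells of wild-type mice. The genes are the nuclear receptors Nr2f1 and Nr2f2, the basic helix-loop-helix factors Tcf21, Twist1 and Twist2, the homeobox factors Meis1, Meis2 and Prrx1, and the zinc-finger factor Zeb2. They were chosen by name, and every probe set whose platform symbol is one of these names was taken: 29 probe sets of 45101 on the array, for 9 of the 18193 genes it names.

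RNA of 6 mouse samples was hybridised to 1 array each. The tumor group holds 3 granulosa cell tumors, which the design text calls independent, from mice with mutations in Smad1, Smad5 and the gene for Smad8 (now named Smad9), the factors that carry signals from receptors of bone morphogenetic proteins. For these mice the sources used here give no alleles, strain, sex or age. The labels state no treatment of these mice, and each tumor was taken as tissue, so that its RNA comes from every cell type in it. The wild-type group holds 3 samples of isolated granulosa cells, the hormone-producing cells around the oocyte, from 21-day-old females of the strain C57BL/6J;129S5/SvEvBrd. These females had received pregnant mare serum gonadotropin (PMSG), which drives follicle growth, 44 to 46 hours earlier, and each sample pooled 2 to 3 of them. The groups thus differ in genotype, in tumor against normal cells, in tissue against isolated cells, in hormone priming, in storage before extraction and in the software that gave the signals, and these cannot be told apart.

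In the embryo, mesenchyme is the loose tissue from which fibroblasts, smooth muscle and, in the ovary, the stroma and much of the theca layer arise. Nr2f2 (COUP-TFII) is known from ovarian stroma, interstitium and theca, and Tcf21 from interstitial progenitors of the fetal gonad, while granulosa cells are an epithelium-like layer inside the follicle's basement membrane. Twist1, Twist2, Zeb2 and Prrx1 are also known as drivers of epithelial-mesenchymal transition, in which epithelial cells lose junctions and gain fibroblast traits, and Meis1 and Meis2 pair with Pbx and Hox proteins on DNA.

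Promoters are shown first: the 250 bases before the transcription start of the 4 genes called higher in tumors. The promoter of Twist2 follows, the gene of the 9 whose window held a motif match. All are from RefSeq, build GRCm38.p6, written 5′ to 3′, in lower case, with the matched motif TGACAG in capitals.
Nr2f2, chr7:70366747-70366996, minus strand: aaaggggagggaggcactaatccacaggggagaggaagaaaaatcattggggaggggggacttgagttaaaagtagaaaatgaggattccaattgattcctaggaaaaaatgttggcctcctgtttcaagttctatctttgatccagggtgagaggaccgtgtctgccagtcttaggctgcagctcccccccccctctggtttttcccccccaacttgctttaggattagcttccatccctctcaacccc
Tcf21, chr10:22820144-22820393, minus strand: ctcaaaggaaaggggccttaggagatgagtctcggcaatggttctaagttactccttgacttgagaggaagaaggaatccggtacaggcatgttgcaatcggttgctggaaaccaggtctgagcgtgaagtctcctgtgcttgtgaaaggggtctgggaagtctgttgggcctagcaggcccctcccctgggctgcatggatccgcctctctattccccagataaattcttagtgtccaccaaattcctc
Meis2, chr2:116064620-116064869, minus strand: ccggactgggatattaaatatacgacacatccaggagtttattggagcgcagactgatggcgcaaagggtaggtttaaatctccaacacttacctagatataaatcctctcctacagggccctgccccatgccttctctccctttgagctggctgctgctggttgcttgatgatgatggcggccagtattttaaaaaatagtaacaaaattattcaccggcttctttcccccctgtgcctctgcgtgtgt
Prrx1, chr1:163313651-163313900, minus strand: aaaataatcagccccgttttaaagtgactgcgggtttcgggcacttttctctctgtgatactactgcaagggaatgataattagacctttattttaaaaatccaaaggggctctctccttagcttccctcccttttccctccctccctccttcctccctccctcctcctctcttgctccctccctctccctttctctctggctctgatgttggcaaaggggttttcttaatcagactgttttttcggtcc
Twist2, chr1:91801211-91801460, plus strand: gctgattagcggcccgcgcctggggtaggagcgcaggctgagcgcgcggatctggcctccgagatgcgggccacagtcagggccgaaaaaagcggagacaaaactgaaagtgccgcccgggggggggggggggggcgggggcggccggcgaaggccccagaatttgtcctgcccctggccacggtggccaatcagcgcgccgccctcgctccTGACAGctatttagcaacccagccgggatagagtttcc
All 9 genes had a promoter window in the RefSeq table, 13 windows of 300 bases in all, each reaching 250 bases before a start and 50 after it. Both strands were searched for CACCTG, the E-box that Zeb and Snail proteins bind, CATATG, an E-box of Twist dimers, TGACAG, a Meis site, AGGTCA, a nuclear receptor half-site, and TGATTGA, a Pbx-Meis site. Of the 13 windows, 12 held none of these 5 letter strings, and the match in Twist2 began at base -38 from the start. Among 32851 windows of the table, 20.2% held CACCTG, 3.91% CATATG, 19.2% TGACAG, 16.3% AGGTCA and 2.7% TGATTGA. The median GC content was 52.7% in the windows of the 9 genes and 52.7% in the whole table. None of the 4 genes that rose in tumors had a match.

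Tcf21, Nr2f2, Meis2 and Prrx1 were higher in tumors, Zeb2 was lower, and Twist2 and Meis1 were not called. Nr2f1 and Twist1 reached the signal minimum on 2 tumor arrays each and on no wild-type array, and were not tested. A probe set was tested where its signal, the array's linear intensity, reached 100 on at least 3 of the 6 arrays, and the brightest such probe set stood for a gene. Values were tested as log2(signal + 32) with limma over 11611 genes, called at an adjusted p (Benjamini-Hochberg) below 0.05. Of the 7 genes tested, 4 were called higher and 1 lower, while 14.5% of all tested genes were called higher and 12.6% lower. Prrx1 passed the filter only through its tumor arrays and had to differ.
Without a filter, the 3 tumors lay above the 3 wild-type samples in 14 of the 29 probe sets, below them in 3, and overlapped with them in 12. Among all 34945 probe sets with 1 symbol, 14.9% lay above and 17.9% below in the same way. The probe sets of a gene share its transcripts and are not independent. In such bulk RNA, fewer cells of a type and less RNA per cell cannot be told apart. Signals of different probe sets have different affinities, so levels are compared between samples and not between genes.

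**Figure D1:**
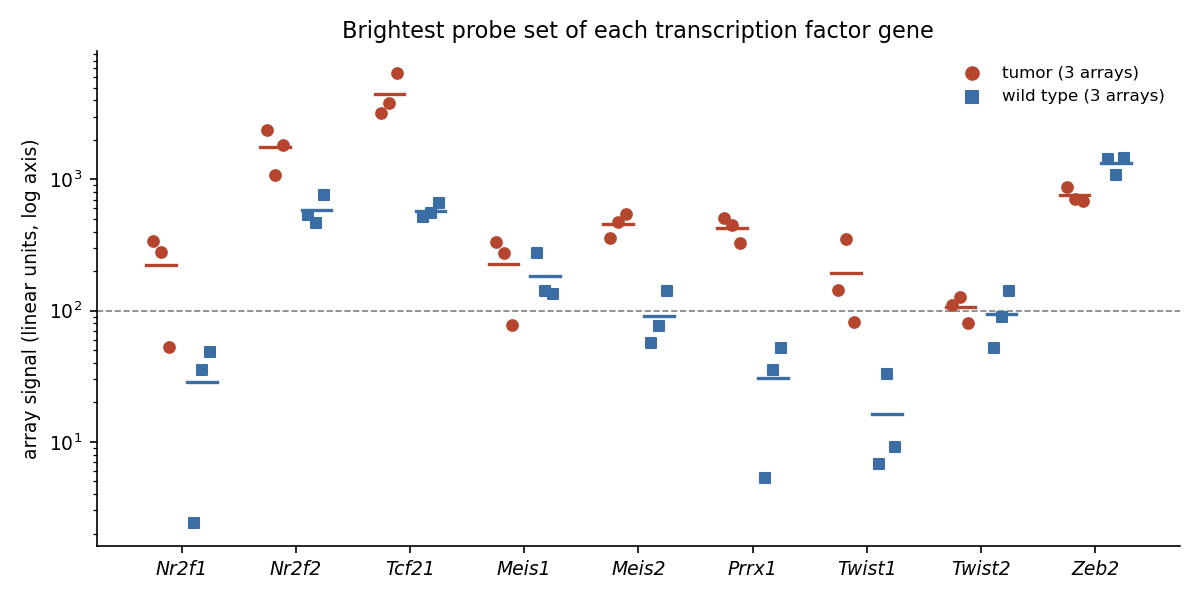
Signals of the probe set that stands for each of the 9 genes, on a log axis in array signal units, with 3 tumors to the left of 3 wild-type samples, each point 1 array, each bar the group mean and the dashed line the signal minimum of 100. Tumors lie above wild-type samples for Tcf21, Nr2f2, Meis2, Prrx1, Nr2f1 and Twist1, below them for Zeb2, and overlap with them for Twist2 and Meis1.

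On probe set 1417447_at, Tcf21, a helix-loop-helix factor of mesenchymal progenitors, had signals of 3186, 3832 and 6435 in the 3 tumors, against 517.9, 552.2 and 664.9 in wild-type samples. The lowest tumor was thus far above the highest wild-type sample. Tcf21 averaged 4484 ± 1719.9 in tumors and 578 ± 76.9 in wild-type cells (SD, n = 3 each), which is 2.83 as a log2 fold change (SE 0.27, limma adjusted p = 0.000985). Of the 11611 genes tested, 80 had a larger log2 fold change. The call held with any 1 array left out (log2 fold change 2.54 to 3.04). With the mean of its probe sets in place of the brightest, the log2 fold change was 1.56 (limma adjusted p = 0.00198). The other Tcf21 probe set, 1458887_at, lay near the minimum: 139.1, 86.92 and 133.0 in tumors, against 104.7, 80.10 and 89.30 in wild-type samples. Its groups overlapped, and it was not called (log2 fold change 0.28, limma adjusted p over 24168 probe sets = 0.327).

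Twist1 and Twist2, close relatives that silence epithelial genes, gave low signals. Twist1 (1418733_at) had signals of 144.5, 349.4 and 82.11 in tumors, against 6.800, 32.80 and 9.200 in wild-type samples. All 3 wild-type signals were below 100, as was the third tumor's. Twist1 averaged 192 ± 139.8 in tumors and 16.3 ± 14.4 in wild-type cells (SD, n = 3 each), 1.61-fold higher in tumors with the wild-type arrays set to 100. Tumor 3, itself below 100, was taken as measured, so this is not a firm bound. Twist1 was not tested at the filter used. With every named gene tested, 18193 in all, its limma adjusted p was 0.0326 (log2 fold change 2.07, SE 0.45). Twist2 (1448925_at) had 110.6, 126.3 and 80.96 in tumors, against 51.70, 89.60 and 140.3 in wild-type samples. The highest sample was a wild-type one, and the groups overlapped. The difference was 0.18 on the log2 scale with a 95% interval of -0.48 to 0.84 (limma adjusted p = 0.663), which leaves room for a rise as well as a fall.

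Nr2f2, a nuclear receptor of stromal cells, had 6 probe sets, of which 5 passed the filter and 4 were called higher. The brightest, 1416159_at, gave 2364, 1077 and 1819.9 in tumors, against 536.2, 462.9 and 761.3 in wild-type samples. Every tumor exceeded every wild-type sample, the second tumor by the least. Nr2f2 averaged 1754 ± 646 in tumors and 587 ± 156 in wild-type cells (SD, n = 3 each), which is 1.49 as a log2 fold change (SE 0.31, limma adjusted p = 0.0144); 553 genes had a larger one. The call over genes was lost without wild-type sample 1 (limma adjusted p = 0.0567), and that over probe sets also without wild-type sample 2 (0.0526).
2 further Nr2f2 probe sets had tighter groups. 1416158_at gave 1636, 1385 and 1348 in tumors, against 567.1, 485.4 and 491.5 in wild-type samples (log2 fold change 1.44, SE 0.16, limma adjusted p = 0.00183). 1436475_at gave 904.0, 753.1 and 887.7 in tumors, against 303.0, 240.4 and 267.1 in wild-type samples (log2 fold change 1.54, SE 0.16, limma adjusted p = 0.00163). In both, tumors had little spread and lay clear of the wild-type samples. 1416160_at was called with more spread, with 499.2, 276.8 and 652.1 in tumors, against 201.6, 107.9 and 148.5 in wild-type samples (log2 fold change 1.42, limma adjusted p = 0.0219). Its call was lost without tumor 1 (limma adjusted p = 0.0580), without wild-type sample 2 (0.0647) or without wild-type sample 3 (0.0649). 1444229_at went with neither group, with 237.7, 47.49 and 177.6 in tumors, against 134.7, 135.2 and 108.0 in wild-type samples (log2 fold change 0.07, 95% interval -0.93 to 1.06, limma adjusted p = 0.926). The second tumor was its lowest sample. The sixth probe set, 1431237_at, was below 100 on every array. Over all 18 probe sets of the 9 genes that passed, 9 were called higher and 3 lower, while 11.1% of 24168 probe sets were called higher and 11.9% lower.

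Nr2f1 (COUP-TFI), the close relative of Nr2f2, had 1 probe set, 1418157_at, with 337.7, 277.5 and 52.57 in tumors, against 2.400, 35.10 and 48.40 in wild-type samples. The third tumor lay barely above the highest wild-type sample, and neither reached 100. Nr2f1 averaged 223 ± 150.3 in tumors and 28.6 ± 23.7 in wild-type cells (SD, n = 3 each), 1.70-fold higher in tumors with the wild-type arrays set to 100. Tumor 3, itself below 100, was taken as measured, so this is not a firm bound. With every named gene tested, Nr2f1 was not called (log2 fold change 1.90, SE 0.61, limma adjusted p = 0.0924).

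Meis2, a homeobox cofactor of the TALE class, had 359.3, 472.6 and 545.9 in tumors, against 56.70, 76.70 and 140.4 in wild-type samples, on probe set 1457632_s_at. Only 1 wild-type sample reached 100, and all tumors lay above it. Meis2 averaged 459 ± 94.0 in tumors and 91.3 ± 43.7 in wild-type cells (SD, n = 3 each), which is 2.03 as a log2 fold change (SE 0.28, limma adjusted p = 0.00315), with 254 genes having a larger one. The suffix of this probe set marks probes that can match transcripts of several genes. The Meis2 probe set 1417129_a_at gave 280.1, 333.2 and 474.9 in tumors, against 61.80, 39.90 and 101.0 in wild-type samples (log2 fold change 2.00, limma adjusted p = 0.00404). 1440091_at passed only through its tumors, with 210.7, 247.0 and 129.3 in tumors, against 36.10, 79.20 and 79.60 in wild-type samples, at least 1.89-fold higher in tumors (limma adjusted p = 0.0219). That call was lost without tumor 1, tumor 2 or wild-type sample 1 (limma adjusted p = 0.0579, 0.0644 and 0.0731). The fourth Meis2 probe set, 1447861_x_at, overlapped between the groups and was not tested.

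Meis1, its relative, did not separate the groups. Its brightest probe set, 1450992_a_at, gave 330.3, 273.6 and 77.62 in tumors, against 276.8, 142.1 and 134.3 in wild-type samples. The third tumor was the lowest of the 6 samples and the first tumor the highest. Meis1 averaged 227 ± 133 in tumors and 184 ± 80.1 in wild-type cells (SD, n = 3 each). The difference was 0.15 on the log2 scale, with a 95% interval of -0.97 to 1.26 (limma adjusted p = 0.843), which spans 0. The Meis1 probe set 1443260_at gave 133.3, 125.9 and 57.12 in tumors, against 157.0, 107.6 and 164.0 in wild-type samples (log2 fold change -0.38, limma adjusted p = 0.351), again with overlapping groups. The third, 1459423_at, was not tested and also overlapped, with 104.1, 77.10 and 43.03 in tumors, against 123.9, 83.90 and 99.60 in wild-type samples.

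Prrx1, a paired-type homeobox factor of limb and face mesenchyme and of fibroblasts, was near background in wild-type cells and measured in every tumor. Its brightest probe set, 1425528_at, gave 503.5, 450.4 and 327.1 in tumors, against 5.300, 35.50 and 51.50 in wild-type samples. No wild-type array reached 100, so only a bound can be given there. Prrx1 averaged 427 ± 90.5 in tumors and 30.8 ± 23.5 in wild-type cells (SD, n = 3 each), at least 4.20-fold higher in tumors (limma adjusted p = 0.00145). The call held with any 1 array left out, but this probe set passed the filter only through its tumor arrays and had to differ. Of the other 5 Prrx1 probe sets, none passed the filter. 1439774_at gave 123.5, 111.2 and 88.86 in tumors, against 46.50, 49.10 and 27.90 in wild-type samples, and 1425527_at gave 147.1, 107.4 and 81.67 in tumors, against 44.80, 6.300 and 3.800 in wild-type samples. In both, the tumors lay above all wild-type samples, 1.07-fold and 1.09-fold with the wild-type arrays set to 100. Tumor 3, below 100 in both, was taken as measured, so these are not firm bounds. 1425526_a_at separated the groups below the minimum, with 65.58, 67.92 and 57.86 in tumors, against 3.000, 6.900 and 8.100 in wild-type samples. The remaining pair, 1432129_a_at and 1458004_at, stayed below 100 on every array with overlapping groups.

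Zeb2, a zinc-finger repressor of epithelial genes that also binds Smad proteins, went the other way. Its brightest probe set, 1456389_at, gave 872.7, 708.2 and 688.8 in tumors, against 1431, 1082 and 1458 in wild-type samples. All tumors lay below all wild-type samples. Zeb2 averaged 757 ± 101 in tumors and 1324 ± 210.2 in wild-type cells (SD, n = 3 each), a log2 fold change of -0.78 (SE 0.18, 95% interval -1.20 to -0.36, limma adjusted p = 0.0192), and 1134 genes had a lower one. The call was lost without tumor 2 (limma adjusted p = 0.0579), without wild-type sample 1 (0.0814) or without wild-type sample 3 (0.0694).
The Zeb2 probe set 1458941_at fell by the most, with 154.0, 171.5 and 154.6 in tumors, against 431.8, 355.1 and 389.0 in wild-type samples (log2 fold change -1.14, SE 0.15, limma adjusted p = 0.00350). 1434298_at also fell, with 376.9, 343.1 and 408.6 in tumors, against 936.2, 486.3 and 862.7 in wild-type samples (log2 fold change -0.91, limma adjusted p = 0.0418). Its call was lost without any 1 of the arrays other than wild-type sample 2, with limma adjusted p of up to 0.141. 1422748_at had overlapping groups and was not called, with 517.6, 398.2 and 372.5 in tumors, against 683.4, 468.4 and 806.7 in wild-type samples (log2 fold change -0.55, limma adjusted p = 0.135). The fifth Zeb2 probe set, 1454200_at, had overlapping groups and was not tested.

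**Figure D2:**
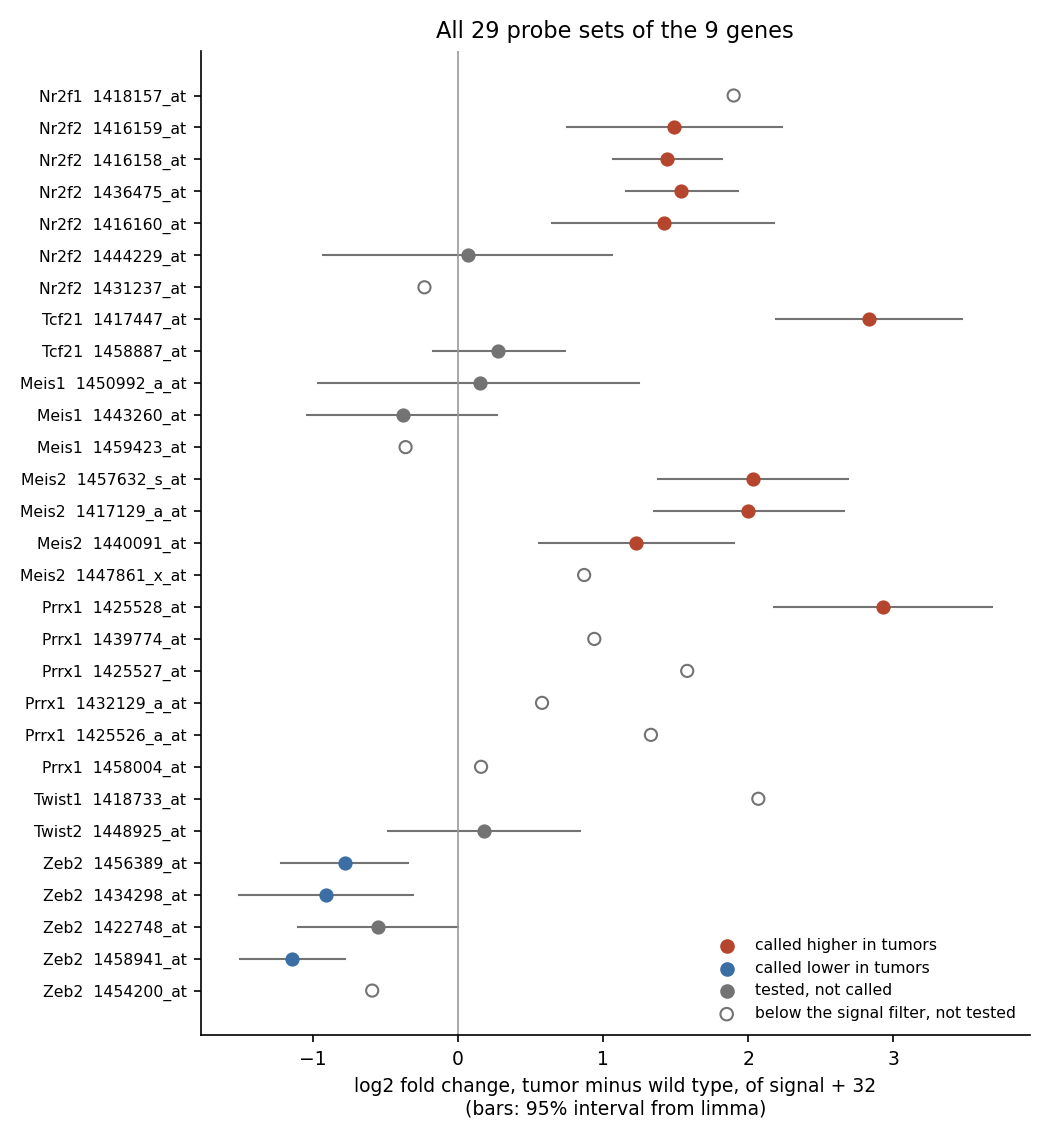
Log2 fold change (tumor minus wild type, of signal + 32) of all 29 probe sets, 1 row each, grouped by gene, with filled marks coloured by call, open marks for untested probe sets, and 95% intervals from limma for those that passed the filter. The called Nr2f2, Tcf21, Meis2 and Prrx1 probe sets lie to the right of 0 and the called Zeb2 probe sets to the left.

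Related genes within a family were set against each other inside each array, a comparison chosen after the values were seen. Each value is the log2 ratio of signal + 32 of the first gene over signal + 32 of the second. Meis2 over Meis1 was 0.11, 0.72 and 2.40 in tumors, against -1.80, -0.68 and 0.05 in wild-type samples. The tumors lay above the wild-type samples, by 1.89 on average, with Meis2 below 100 in wild-type samples 1 and 2 and Meis1 below 100 in tumor 3. Zeb2 over its relative Zeb1 was -1.42, -2.13 and -1.51 in tumors, against 0.32, -0.09 and 0.51 in wild-type samples, a difference of -1.93 with no overlap. Twist1 over Twist2 and Nr2f2 over Nr2f1 were also computed, but Twist1 and Nr2f1 were below 100 on every wild-type array and in tumor 3, so their ratios are not given. An exact two-sided permutation test of 3 against 3 samples cannot go below p = 0.1, which was the value for Meis2 over Meis1 and for Zeb2 over Zeb1. Adjusted over the 4 pairs computed, the exact p was 0.133 for each.

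The 3 tumors did not stand in the same order for every gene. Tumor 1 was the highest tumor in 16 of the 29 probe sets and the lowest in 6. Tumor 2 was highest in 7 and lowest in 8. Tumor 3 was highest in 6 and lowest in 15. On the brightest probe set of each gene, it had the lowest tumor signals for Nr2f1, Twist1, Twist2, Meis1, Prrx1 and Zeb2 but the highest for Tcf21 and Meis2. Other probe sets did not all keep this order. Tumor 3 was the highest tumor on Zeb2 probe set 1434298_at (408.6) and the lowest on Meis2 probe set 1440091_at (129.3).

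For each tested gene, the genes with the most similar course over the 6 arrays were found by the root mean square difference of log2(signal + 32), after each gene was centred on its own mean. For Tcf21 they were Frmd4b at 0.09, Kctd14 at 0.19 and Col12a1 at 0.20. For Nr2f2 they were Scn7a and Npr3 at 0.16 and Prr36 at 0.17. For Meis2 they were Emcn at 0.12, Ctss at 0.21 and Trp63 at 0.22, and for Prrx1 they were Mndal at 0.14, B4galt6 at 0.19 and C1qa at 0.25. The log2 fold changes of these 12 genes were between 1.31 and 3.24. Zeb2 lay closest to Clpb at 0.07 and to Eml2 and Ebp at 0.08. Twist2 lay closest to Gbp2 at 0.10, Tlr2 at 0.12 and Zbtb2 at 0.14, and Meis1 to Sdc4 at 0.22, Ccdc57 at 0.25 and Cbx7 at 0.27. Among the 9 genes themselves, Tcf21 and Meis2 differed by 0.47, Nr2f2 and Meis2 by 0.54, Tcf21 and Prrx1 by 0.55, and Meis2 and Prrx1 by 0.58. Meis2 was 74th and Prrx1 120th in the order of genes closest to Tcf21. These likenesses are descriptions over 6 arrays that fall into 2 groups.

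Genes that work with the 9 factors or are related to them were read against the same shares over all tested genes, 14.5% higher and 12.6% lower, and a median log2 fold change over all genes of 0.00. Of the TALE relatives of Meis1 and Meis2, 7 of 8 named genes were tested, with 2 called higher, 1 lower and a median of 0.29. Tgif2, a TALE corepressor of transforming growth factor responses, rose, with 1299, 868.3 and 1319.8 in tumors, against 451.5, 404.5 and 502.1 in wild-type samples (log2 fold change 1.28, SE 0.20, limma adjusted p = 0.00518). Pknox2 rose by 0.56 (limma adjusted p = 0.0275), and its relative Tgif1 fell by 0.50 (limma adjusted p = 0.0484). The call of Pknox2 was lost under 7 and that of Tgif1 under 8 of the alternatives, leaving out single arrays of either group among them. Without tumor 2, wild-type sample 1 or wild-type sample 3, 1 TALE relative was called higher. Of the helix-loop-helix partners, 4 of 10 were tested and 1 was called higher (2 without wild-type sample 3), with a median of 0.59. That gene was Tcf4, an E-protein, with 5234, 5879 and 4556 in tumors, against 2786, 2458 and 2609.7 in wild-type samples (log2 fold change 0.98, SE 0.15, limma adjusted p = 0.00511). Of the relatives and corepressors of the COUP-TF receptors, 8 of 10 named genes were tested and 1 was called higher, with a median of 0.37; without tumor 3, 4 were. It was Zfpm2 (FOG2), a partner of GATA factors, with 1904, 1646 and 1781 in tumors, against 831.5, 983.2 and 790.3 in wild-type samples (log2 fold change 1.01, SE 0.15, limma adjusted p = 0.00425). Scaled to the hybridisation controls instead, Tgif2 stood at 0.28 and was not called (limma adjusted p = 0.475), and Pknox2 turned to -0.44, Tcf4 to -0.06 and Zfpm2 to -0.01, where the median over all genes was -0.98.

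Other transcription factors of mesenchyme and epithelial-mesenchymal transition gave 7 called higher and 0 lower of 14 tested, of 27 named genes, with a median log2 fold change of 1.12. Of the 7, Meox1, Snai1 and Ebf1 passed the filter only through their tumor arrays and had to differ. Without wild-type sample 1, 5 of these factors were called higher. Osr2, an odd-skipped zinc-finger factor, had 967.3, 1598 and 2574 in tumors, against 159.3, 137.2 and 115.0 in wild-type samples (log2 fold change 3.27, SE 0.33, limma adjusted p = 0.00122). Meox1, a homeobox factor of somites, had 217.9, 498.3 and 162.1 in tumors, against 12.30, 12.90 and 35.60 in wild-type samples, at least 2.60-fold higher in tumors. Zeb1, named after its values were seen as the relative of Zeb2, rose, with 2388, 3206 and 2015 in tumors, against 1139, 1157 and 1012 in wild-type samples (log2 fold change 1.15, SE 0.20, limma adjusted p = 0.00698). Snai1 was at least 1.82-fold higher in tumors. Snai2 was not called on its brightest probe set (log2 fold change 0.74, limma adjusted p = 0.0844). Both genes were also named after their values were seen. The other Snai2 probe set gave 306.3, 383.3 and 333.2 in tumors, against 141.5, 206.0 and 173.9 in wild-type samples. That probe set was called higher (log2 fold change 0.86, limma adjusted p over 24168 probe sets = 0.0160).

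Of 14 tested epithelial genes that Zeb, Snail and Twist factors repress in epithelial cells, 1 was called higher and 2 lower, near the shares over all genes, and the median was 0.21. Dsp (desmoplakin) fell, with 878.4, 388.6 and 658.7 in tumors, against 2908, 3474 and 2709.9 in wild-type samples (log2 fold change -2.25, SE 0.28, limma adjusted p = 0.00250). Grhl2, an epithelial factor, fell by 1.37 (limma adjusted p = 0.0474), while Jup (plakoglobin) rose by 0.98 (limma adjusted p = 0.0407). The call of Grhl2 was lost under 10 and that of Jup under 7 of the alternatives; without tumor 3, 2 of the epithelial genes were called higher. Of 22 tested mesenchymal genes of the transition, 15 were called higher and 2 lower, with a median of 1.29. Fap, 1 of the 15, passed the filter only through its tumor arrays and had to differ. Without wild-type sample 1, the count called higher was 10. Without tumor 1, or without any 1 wild-type array, the count called lower was 1. Postn (periostin) rose by 3.57 (SE 0.43, limma adjusted p = 0.00209) and Mmp2, a matrix protease, by 2.44 (SE 0.19, limma adjusted p = 0.000509). Cdh2 (N-cadherin), which granulosa cells also express, fell, with 1241, 1473 and 1867 in tumors, against 4660.0, 6348 and 5841 in wild-type samples (log2 fold change -1.87, SE 0.20, limma adjusted p = 0.00148).

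**Figure D3:**
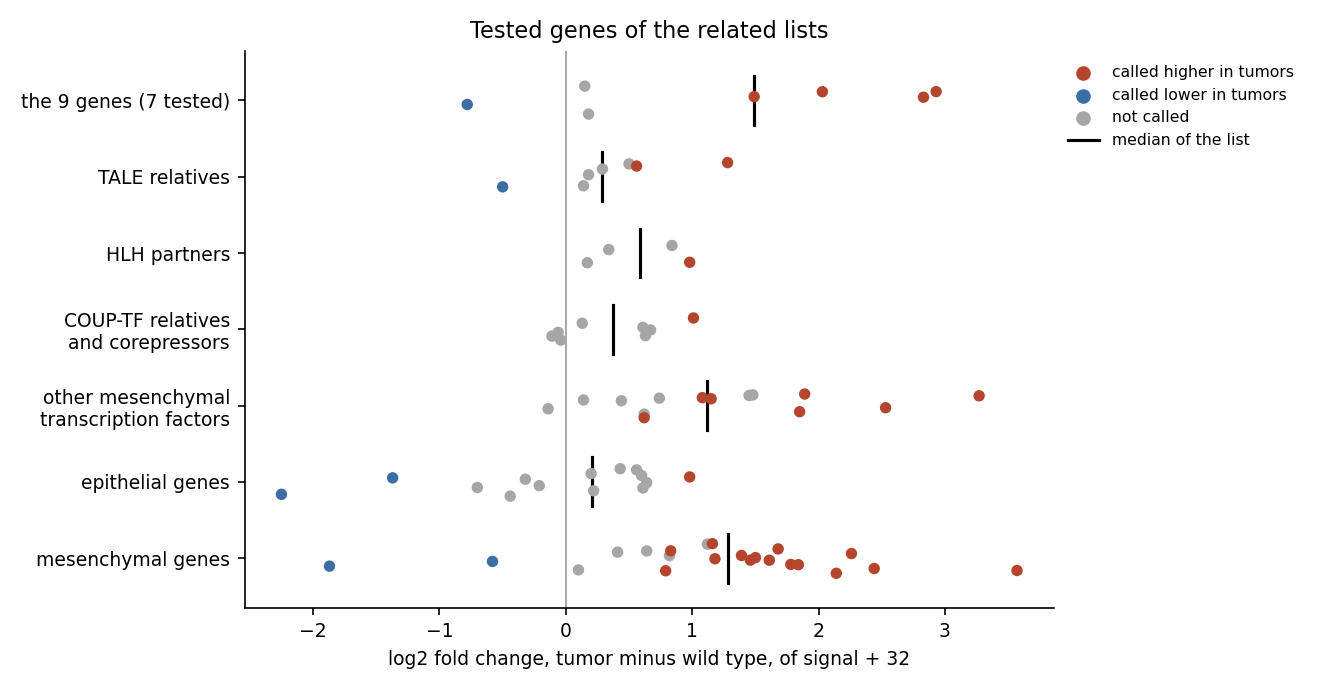
Log2 fold change (tumor minus wild type, of signal + 32) of each tested gene in the 9-gene set and in 6 lists of related genes, 1 point a gene, coloured by its call, with the list median as a black bar. The medians are 1.12 and 1.29 for the lists of other mesenchymal factors and of mesenchymal genes, against 0.21 to 0.59 for the lists of partners, relatives and epithelial genes.

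Markers of several cell types were also higher in the tumors, beside the summed signal of the 9 genes, which was 7567 to 10109.5 in tumors, against 2509 to 3409 in wild-type cells. Such sums follow their brightest probe sets. Tcf21 and Nr2f2 gave most of the tumor sums of the 9 genes, which do not show the fall of Zeb2. Of 15 tested fibroblast markers, 12 were called higher and 0 lower, and their summed signal was 47009.8 to 77666 in tumors, against 17415 to 21964 in wild-type cells. Col1a1, Col1a2, Col3a1, Thy1 and Fap of this list were already counted among the mesenchymal genes called higher. So were Acta2 and Tagln of the smooth muscle list. These calls are not separate. Lum, a matrix proteoglycan of fibroblasts, rose by 2.90 on the log2 scale and Dpt, which organises collagen, by 2.45. Of 11 tested smooth muscle and pericyte markers, 11 were called higher (7 without wild-type sample 1), with sums of 16932 to 32660.4 in tumors, against 4598 to 5918 in wild-type cells. Of 12 endothelial markers, 6 were called higher, with sums of 7194 to 14158 in tumors, against 2333 to 3308 in wild-type cells. Of 11 macrophage markers, 11 were called higher, with sums of 13974 to 17076 in tumors, against 2295 to 2803 in wild-type cells, while Itgam was below 100 on every array. Lymphocyte marker sums overlapped, at 312.7 to 849.4 in tumors, against 287.2 to 581.4 in wild-type cells. Of the 8 named lymphocyte genes, 1 was tested and 7 were below 100 on every wild-type array. Cd3e and Cd4 were below 100 on every array. Theca markers also overlapped, at 20335 to 47411 in tumors, against 39987 to 49167 in wild-type cells, and 2 were called higher and 4 lower of 10. Their sum thus mixes rises and falls. Ptch1, 1 of the 2 called higher, gave 6059.7, 17963 and 27114 in tumors, against 2607, 3087 and 2092 in wild-type samples. It was named after its values were seen. Surface epithelium markers overlapped, at 4031 to 6588 in tumors, against 4639.8 to 7004 in wild-type cells, with 1 of 11 called lower, and 0 without tumor 2, tumor 3, wild-type sample 2 or wild-type sample 3. Summed oocyte markers were lower, at 484.4 to 742.7 in tumors, against 1042 to 1707 in wild-type cells. Of 6 tested oocyte markers, 5 were called lower, 3 without tumor 2, 3 without wild-type sample 2 and 2 without wild-type sample 1. Zp1, Zp2, Zp3 and Dppa3, 4 of these 5, passed the filter only through their wild-type arrays and had to differ. Likewise Fap, Des, Cspg4, Kcnj8, Sox17, Ptprc and Gli1, counted among the markers called higher, passed only through their tumor arrays. The share of these cell types in the levels of the 9 genes was not tested.

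The labelled cell type was checked with 11 granulosa markers, all of them above 100 in at least 1 tumor and 1 wild-type sample, with sums of 78531 to 97131 in tumors, against 184798 to 209929 in wild-type cells, 1 called higher (0 without any 1 array other than wild-type sample 2) and 5 lower. Of the mutated genes, Smad1 had 2076, 2861 and 2354 in tumors, against 829.6, 855.6 and 925.7 in wild-type samples, and Smad5 had 2435, 2815 and 3108 in tumors, against 1246, 1078 and 1273 in wild-type samples. Smad9 was below 100 on every array. The probes are not placed against the mutated parts of these genes here, so these signals do not check the genotype. The arrays had between 22599 and 25049 probe sets at 100 or more. The correlation between arrays across genes was 0.938 to 0.951 among tumors, 0.964 to 0.979 among wild-type samples and 0.840 to 0.867 across the groups. The log2 ratio of the 3′ over the 5′ Actb probe set, a sign of RNA quality, was 0.57, 0.888 and 0.966 in tumors, against 0.328, 0.669 and 0.342 in wild-type samples. The groups overlapped for Actb, with tumor 1 below wild-type sample 2. The same ratio for Gapdh also overlapped between the groups, with -0.469, -0.244 and -0.382 in tumors, against -0.395, -0.324 and -0.455 in wild-type samples.

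**Figure D4:**
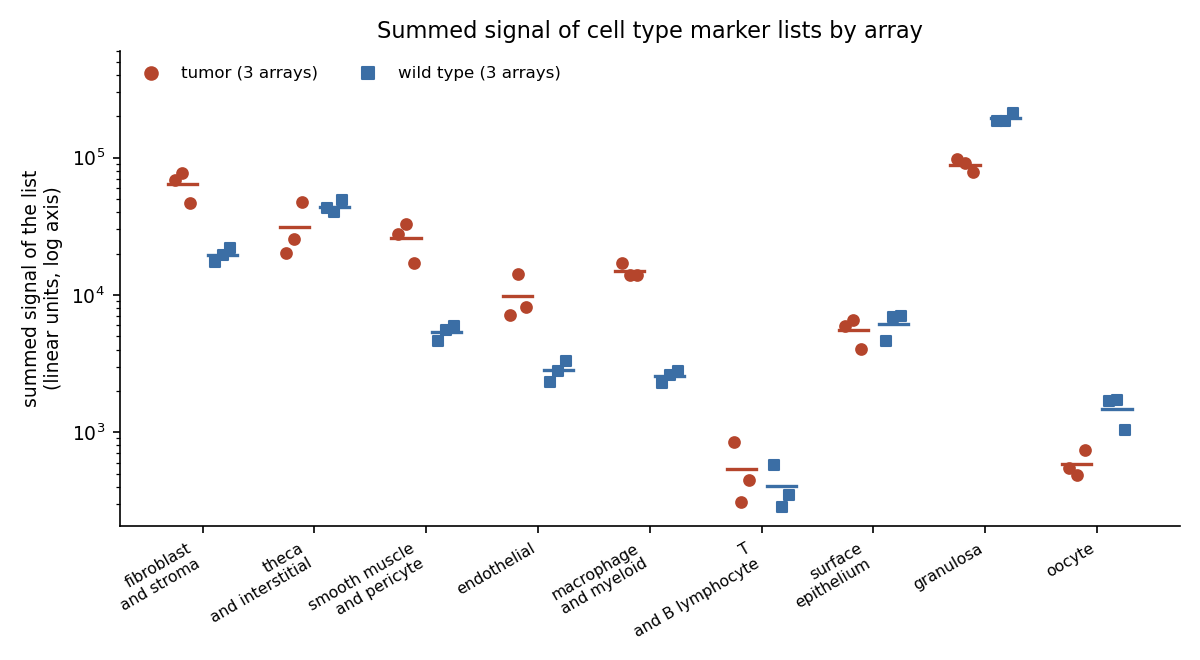
Summed signal of the marker lists of 9 cell types, on a log axis in array signal units, 1 point per array and a bar at the group mean, with 3 tumors to the left of 3 wild-type samples in each list. Fibroblast, smooth muscle, endothelial and macrophage sums are higher in every tumor, granulosa and oocyte sums lower, and theca, surface epithelium and lymphocyte sums overlap.

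Changes are relative to a scaling that sets the trimmed mean of every array equal. Scaling instead to the bacterial and phage control probe sets, an alternative chosen after seeing the data, moved the median log2 fold change over all genes to -0.98 and the calls over all genes to 416 higher and 7544 lower, in place of 1686 higher and 1468 lower. Under it Tcf21 stood at 1.81 and Meis2 at 1.16, both still called, as was Prrx1, for which only a bound can be given, Zeb2 at -1.79, and Nr2f2 at 0.48 without a call (limma adjusted p = 0.238). Meis1 and Twist2 turned to -0.70 and -0.58, not called. Relative to the median of all genes under that scaling, Nr2f2, Meis1 and Twist2 stayed above it and Zeb2 below.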

How the data were processed

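RNA of 3 tumors and 3 wild-type granulosa cell samples was measured on 1 array each, with groups taken from the labels. The authors deposited 1 linear intensity per probe set and array, the signal, obtained with MAS5 for wild-type arrays and GCOS for tumor arrays, per the submitters' processing notes without versions. Every array had a deposited trimmed mean of 500 (2% left out at each end), and was scaled to it again. Depth does not apply to arrays; the 3 per group limit the precision. The labels do not say whether wild-type pools were separate cohorts, so p-values measure the spread between these samples.

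Gene names come from the platform annotation: of 45101 probe sets, 34945 had 1 gene symbol, 932 several and 9160 none, and 64 were controls. The minimum of 100 lay near the highest signal of absent bacterial controls (101.0). Values were tested as log2(signal + 32) with limma 3.58.1 (lmFit, eBayes) in R 4.3.3, two-sided, without a replicate block, over 11611 genes or 24168 probe sets. Such log2 fold changes understate those of dim genes. If a group had all 3 arrays below 100, the fold is a bound, with these arrays set to 100. Signals below 100 in the other group were taken as measured, and the fold is then not a firm bound. Tables used Python 3.11.15, pandas 2.3.3, numpy 2.4.6 and scipy 1.17.1, and figures matplotlib 3.10.9. The fit was tested on simulated data.

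The 9 genes and the lists were chosen with earlier results of these data known. All 9 genes and their probe sets are named. From each list the rule takes the 2 called genes with the largest change in the more frequent direction and the largest in the other, or, with 0 called, the smallest p; the 3 most alike genes are named for each tested gene. Some list genes were not analysed here. Replicate numbers pair no samples: same-numbered samples' deviations correlated at -0.045, 0.028 and 0.09. Alternatives were other pseudocounts, filters, normalizations, variance models, probe set rules, a replicate block and leaving out each array.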

Additional observations from a re-analysis of the deposited data

How the results depend on the processing

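The calls of Tcf21 and Meis2 held under every alternative run. Tcf21 stood at 1.56 for the mean of its probe sets and 2.83 for the brightest. The call of Prrx1 also held, but Prrx1 passed the filter only through its tumor arrays and had to differ. The calls of Nr2f2 and Zeb2 held under all but the alternatives given here and above. Leaving out 1 array gave 3 to 4 of the genes called higher and 0 to 1 lower (0 without tumor 2, wild-type sample 1 or wild-type sample 3), and 7 to 9 probe sets called higher and 1 to 3 lower. It gave 18 to 29 genes of the 6 related lists called higher and 2 to 4 lower (27 and 5 with all arrays), and over all genes 866 to 1704 higher and 662 to 1409 lower. Wild-type sample 1 gave the lowest of these last counts, and without wild-type sample 3 they were 1092 and 880. With hybridisation control scaling, 4 probe sets of the 9 genes were called higher and 5 lower, 8 genes of the related lists higher and 18 lower, and 416 of all genes higher and 7544 lower; Pknox2 turned to -0.44, Tcf4 to -0.06 and Zfpm2 to -0.01. With no filter, 5 of the 9 genes were called higher and 1 lower, 11 of their probe sets higher and 1 lower, 20 genes of the related lists higher and 2 lower, and 1222 of all genes higher and 996 lower. With a pseudocount of 1, 3 genes of the related lists were called lower. The causes were not tested. The replicate numbers share only a label; with the replicate block, 4 of the 9 genes were called higher and 1 lower, as without it, and 1464 of all genes higher and 1138 lower. Signals near 100 limit Nr2f1, Twist1, Twist2, Meis1 and most Prrx1 probe sets.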

Other observations

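The marker lists hold changes beside those of the 9 factors. Of the pericyte and smooth muscle markers, Rgs5, a pericyte signalling regulator, rose by 3.73 on the log2 scale (limma adjusted p = 0.00417) and Cnn1 (calponin) by 2.73 (0.0113). Of the endothelial markers, the transcription factor Sox18 rose by 2.81 (limma adjusted p = 0.00172) and Emcn (endomucin), also the gene most like Meis2, by 2.03 (0.00278). Of the macrophage markers, the complement genes C1qc and C1qa rose by 3.50 and 3.24 (limma adjusted p = 0.00519 and 0.00137).

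Of the theca markers, Cyp17a1, the androgen-making enzyme of theca cells, averaged 140.0 ± 135 in tumors and 4282 ± 1923 in wild-type samples (SD, n = 3 each; limma adjusted p = 0.00261), and Cyp11a1, which starts steroid synthesis, averaged 909 ± 1103 in tumors and 12991 ± 2719 in wild-type samples (limma adjusted p = 0.00638), while Star, which delivers cholesterol for steroid synthesis and was named after its values were seen, was not called (log2 fold change 0.45, limma adjusted p = 0.417). Gli1, a target of hedgehog signals, was at least 6.24-fold higher in tumors, the group through which alone it passed the filter. Of the granulosa markers, Inhba, a beta subunit of activins and inhibins, fell by 5.42 on the log2 scale and its relative Inhbb fell by 3.95, while Amh rose by 2.00 (limma adjusted p = 0.0443), a call lost without any 1 array other than wild-type sample 2. Of the oocyte markers, Zp3, which passed the filter only through wild-type samples, was at least 2.67-fold higher in wild type. Gdf9 had a log2 fold change of -1.31 (limma adjusted p = 0.0257), a call lost without tumor 1 (0.0705), tumor 2 (0.0714), wild-type sample 1 (0.0921) or wild-type sample 2 (0.0811). Upk3b, of surface epithelium, had a log2 fold change of -1.05 (limma adjusted p = 0.0365), a call lost without tumor 2 (0.0784), tumor 3 (0.0663), wild-type sample 2 (0.106) or wild-type sample 3 (0.110). Cd8a, of T cells, was not called (-0.33, limma adjusted p = 0.506).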
